A study of Mus musculus with 16 samples.

Results

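Translation initiation factors are the proteins that load a ribosome onto a messenger RNA and set it on the start codon. Their genes were taken from a count table of sorted mouse CD8+ T cells as every symbol that begins with Eif followed by a digit from 1 to 6. The 4E-BP genes Eif4ebp1, Eif4ebp2 and Eif4ebp3, the kinase gene Eif2ak2 and pseudogene symbols were left out. This gave 56 of 34573 gene symbols. The study followed naive CD8+ T cells from the spleens of C57BL/6 mice through activation in culture, with RNA-seq for expression and Hi-C for chromatin contacts, of which the latter was not analysed here. Naive cells, named Tn, were sorted at day 0 as CD8+, CD44-, CD62L+ cells. All other cells had been stimulated with anti-CD3e and anti-CD28 antibodies at 10 µg/ml each, with IL-2 at 300 U/ml added after the first night. One gate, CD8+ with PD-1 present and TIM-3 absent, gave Teff1 at day 2 and Teff2 at day 5, and Tex were the day 5 CD8+ cells with both PD-1 and TIM-3. PD-1 and TIM-3 are inhibitory receptors of T cells, and in this design the name Tex rests on that gate after culture. Each state had 3 libraries of 0.2 M cells each (M, mega). Day 0 cells were uncultured, so activation, time in culture and the sorting gate cannot be told apart in any comparison with Tn. The labels do not say whether the replicates came from separate mice or cultures, so the p-values measure the spread between these libraries only.

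In the usual pathway, eIF2 brings the initiator tRNA to the small ribosomal subunit, where eIF1, eIF1A, eIF5 and the large eIF3 complex prepare it. The eIF4F complex (the cap-binding eIF4E, the scaffold eIF4G and the RNA helicase eIF4A) recruits the subunit to the capped end of the mRNA, and eIF5B joins the large subunit once the start codon is found. T cells are known to raise protein synthesis steeply when their receptor is engaged, and control of eIF4E by the 4E-BPs and of eIF2 by its kinases and by the exchange factor eIF2B are the best known switches.

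Not all 56 symbols are initiation factors. Eif2c1, Eif2c2, Eif2c3 and Eif2c4 are older symbols of the Argonaute genes Ago1 to Ago4, which act in silencing by small RNAs, and Eif2c5 carries the same stem. Eif2ak1, Eif2ak3 and Eif2ak4 encode kinases that phosphorylate eIF2 (HRI, PERK and GCN2). Without these 5 Argonaute-type and 3 kinase symbols 48 remain, which are called initiation factors below. This set rests on names, and Eif4a3, Eif4e2 and Eif4enif1 in it have other or repressive roles, given with their values. Of the 56 symbols 52 passed edgeR's filter on low counts, among 14332 genes tested in all, and 46 of these were initiation factors. The 4 that did not pass were Eif2c4 with 111 counts over the 12 libraries, Eif2s3y with 1 count, and Eif2c5 and Eif4e1b with 0 counts. Eif2s3y is the Y-linked copy of the eIF2 gamma subunit gene, and Eif4e1b is a relative of Eif4e known from oocytes.

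Library totals ran from 14.7 to 21.2 M counts, at which 3 counts, the limit that a count of 0 allows, correspond to 0.143 to 0.204 CPM (counts per 1 M counts of a library, with totals scaled by TMM factors). All 9 CD8 T cell markers examined were detected, with summed levels of 3090 to 6020 CPM. All 8 B cell markers were detected in Tn, with sums of 584, 47.5 and 1180 CPM in replicates 1, 2 and 3, against 5.42 to 10.2 CPM in the activated libraries, where Pax5 was at 0 in Teff2 and Tex. MHC class II genes summed to 1390, 119 and 2100 CPM in Tn and 29.2 to 125 CPM after activation, and 8 macrophage and monocyte markers to 277, 72.4 and 144 CPM against 4.28 to 11.5 CPM. NK cell genes summed to 51.9, 2.86 and 113 CPM against 0.57 to 9.33 CPM, and those of the CD4 T cell list to 16.3 to 128 CPM in Tn and 74.9 to 537 CPM after activation. Platelet genes summed to 50.7, 11.6 and 26 CPM in Tn against 1.24 to 6.7 CPM, and neutrophil genes to 3.97, 2.04 and 2.68 CPM against 0 to 0.333 CPM. Tn replicate 2 was the lowest Tn library by these lists, but not by the erythroid list, which summed to 155, 147 and 69.1 CPM in Tn against 0.322 to 7.2 CPM after activation. The part of other cells in the comparisons with Tn was not tested beyond a fit that keeps Tn replicate 2 alone. That fit is given below for each role in Teff1, and at day 5 only over all symbols. It is not given for the pathway lists. In bulk RNA, a change in the share of a cell type and a change per cell cannot be told apart.

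Initiation factor mRNA made up a larger share of the transcriptome after activation. The 48 initiation factor symbols together took 0.95%, 0.957% and 0.871% of all counts in the 3 Tn libraries, and 1.4%, 1.51% and 1.73% in Teff1. Their share was 1.2%, 1.56% and 1.4% in Teff2 and 1.3%, 1.52% and 1.45% in Tex. Every activated library lay above every Tn library, and the 3 activated states overlapped one another.

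Between Tn and Teff1, 33 of the 52 tested symbols rose and 2 fell at a Benjamini-Hochberg adjusted p under 0.05 in edgeR's quasi-likelihood test, with 17 not called. Of all genes tested 24.5% were called higher and 24.5% lower, so the share of risers among these symbols, 63.5%, was above the background and the share of fallers, 3.85%, below it. All 33 risers were among the 48 symbols called initiation factors here. Of the fallers Eif4a2 was among them and Eif2c1 was an Argonaute gene. A rise of at least 1 on the log2 scale was called for 22 symbols, against 15.9% of all genes, and a fall of that size for Eif4a2 only, against 17.2%. The median log2 fold change was 0.80 over the 52 symbols and 0.94 over the 46 initiation factors, against -0.06 over all genes. Changes were graded, from 2.21 for Eif2s2, 2.19 for Eif4enif1 and 2.11 for Eif5a down to -0.03 for Eif3f and -1.09 for Eif4a2. With only Tn replicate 2 kept, the median was 0.68, against -0.03 over all genes. This fit assumes the single library to vary like the others. Fewer symbols, and fewer of all genes, were called in it, as given at the end. The 16 risers no longer called had adjusted p from 0.0641 to 0.351 in that edgeR fit, with log2 values from 0.34 for Eif2b2 to 1.10 for Eif3l.

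**Figure D1:**
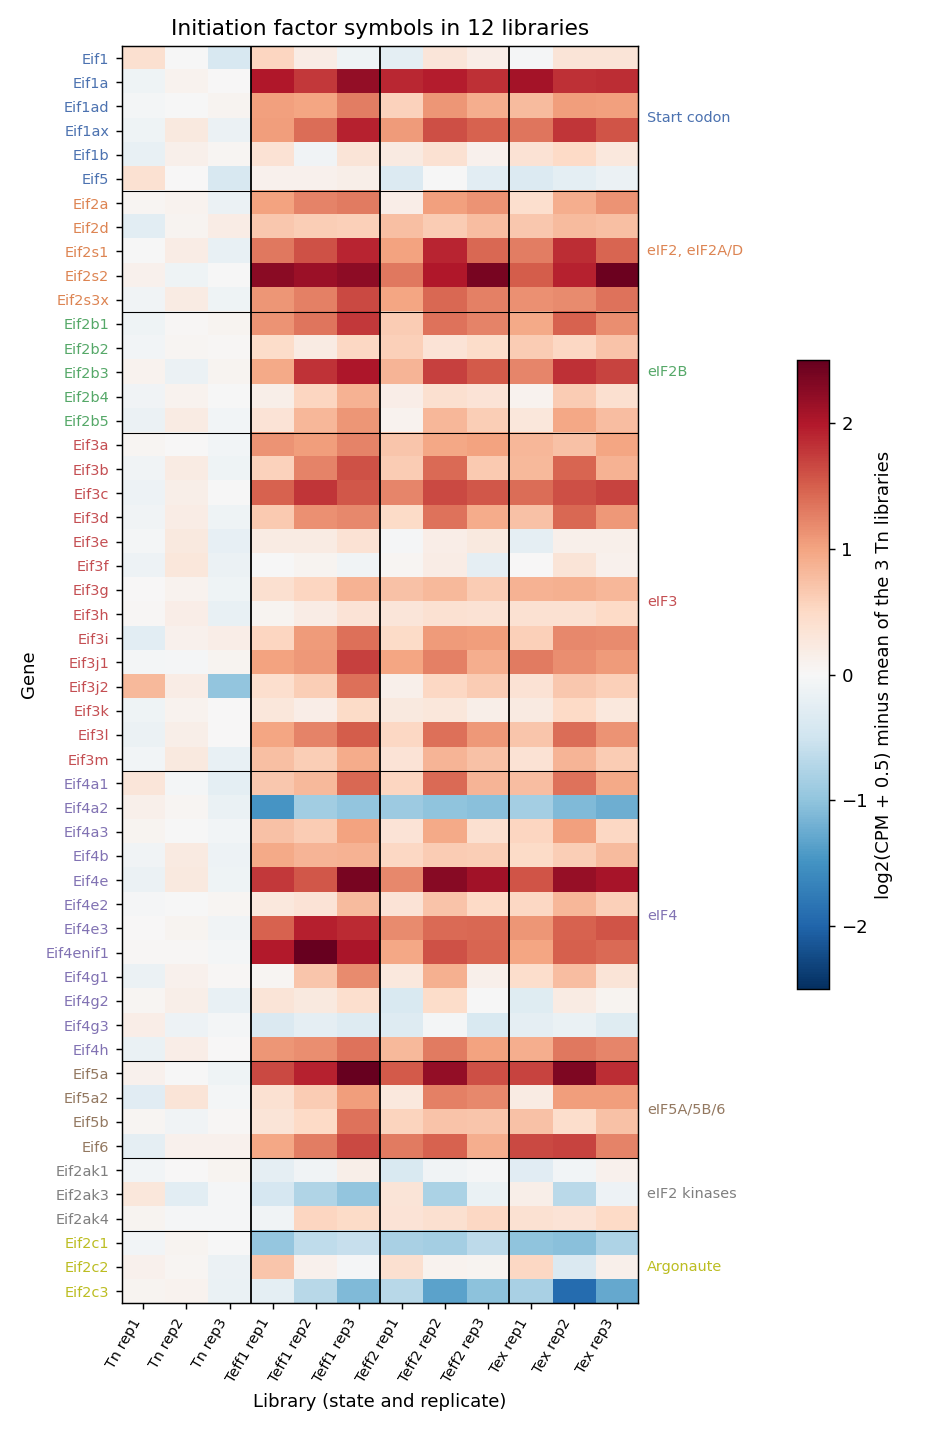
Each cell of the map is log2(CPM + 0.5) of 1 of the 52 tested symbols in 1 of the 12 libraries, minus the mean of the 3 Tn libraries, with genes grouped by role and vertical lines between states. Most rows turn red in all activated libraries, Eif2s2, Eif4e, Eif4enif1, Eif5a and Eif1a most deeply, while the rows of Eif4a2 and Eif2c1 turn blue.

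**Figure D2:**
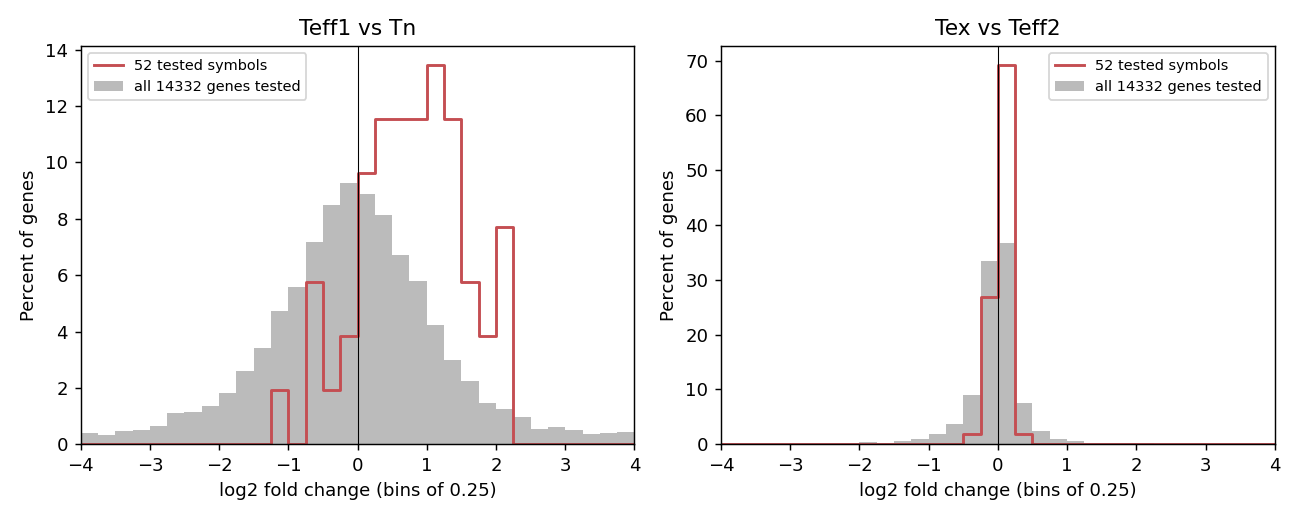
Percent of genes in bins of log2 fold change, for all 14332 genes tested (grey) and the 52 tested symbols (red line), with Teff1 against Tn on the left and Tex against Teff2 on the right. On the left the red line is shifted to the right of the grey distribution, with medians of 0.80 and -0.06, and on the right both are centred near 0.

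Of the factors that act in start codon selection, the eIF1A genes rose and the eIF1 and eIF5 genes did not pass the test. eIF1A, which helps the scanning subunit hold the initiator tRNA, is encoded by Eif1a and Eif1ax. Eif1a was at 35.9, 41.5 and 39.4 CPM in Tn, 157, 134 and 180 CPM in Teff1, 144, 154 and 140 CPM in Teff2 and 167, 139 and 141 CPM in Tex. The activated libraries were all more than 3 times as high as the highest Tn library and overlapped among themselves. Its log2 fold change in Teff1 was 2.01 (SE 0.15, adjusted p = 4.96e-06, edgeR). Eif1ax was at 49.2, 63.3 and 48.3 CPM in Tn, 111, 140 and 203 CPM in Teff1, 112, 163 and 149 CPM in Teff2 and 135, 186 and 160 CPM in Tex. It rose by 1.5 on the log2 scale in Teff1 (SE 0.24, adjusted p = 4.04e-04, edgeR), again without overlap between Tn and the activated libraries. Eif1ad, which encodes a protein with an eIF1A-like domain, rose by 1.11 (SE 0.16).

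Eif1, whose product keeps the subunit open until a start codon is met, had 600, 451 and 340 CPM in Tn, 652, 515 and 421 CPM in Teff1, 382, 554 and 508 CPM in Teff2 and 445, 561 and 567 CPM in Tex. The 4 states overlapped, and the log2 difference between Teff1 and Tn was 0.19 (SE 0.24, adjusted p = 0.526, edgeR). Its paralog Eif1b had 37, 46.3 and 43.6 CPM in Tn, 54, 39.6 and 52.5 CPM in Teff1, 49.5, 54.7 and 45.3 CPM in Teff2 and 54.1, 59.5 and 50.5 CPM in Tex, also overlapping between Tn and Teff1. Eif5, the activator of GTP hydrolysis by eIF2, had a log2 difference of 0.09 in Teff1 (SE 0.18, adjusted p = 0.7, edgeR). So within this step 3 of 6 symbols rose and none fell, and the 3 rises were also called with Tn replicate 2 alone.

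All 5 tested genes of initiator tRNA delivery rose in Teff1. The eIF2 trimer is encoded by Eif2s1 (alpha, the subunit that stress kinases phosphorylate), Eif2s2 (beta) and Eif2s3x (gamma, which binds GTP and the tRNA). Eif2s2 had 93.9, 80.7 and 86.2 CPM in Tn, rising to 415, 382 and 413 CPM in Teff1, and 218, 349 and 450 CPM in Teff2 and 247, 331 and 479 CPM in Tex. Teff1 libraries were tight and high, and the day 5 libraries spread widely but stayed above every Tn library. The log2 fold change in Teff1 was 2.21 (SE 0.28, adjusted p = 9.77e-05, edgeR), a 4.64-fold rise. Eif2s3x had 125, 152 and 122 CPM in Tn, 286, 316 and 415 CPM in Teff1, 261, 359 and 317 CPM in Teff2 and 291, 299 and 338 CPM in Tex. It rose by 1.35 on the log2 scale (SE 0.18), and Eif2s1 by 1.62 (SE 0.25). The genes of 2 proteins that can deliver tRNA in place of eIF2 had log2 fold changes of 1.19 for Eif2a (SE 0.25) and 0.62 for Eif2d (SE 0.14). The difference between these and the eIF2 subunit genes was not tested. With Tn replicate 2 alone the 3 eIF2 subunit genes were called, while Eif2a (log2 1.08, adjusted p = 0.0862, edgeR) and Eif2d (log2 0.55, adjusted p = 0.0798, edgeR) were not.

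The 5 subunit genes of eIF2B, the complex that recharges eIF2 with GTP, were all called higher in Teff1, with log2 fold changes from 0.40 for Eif2b2 to 1.69 for Eif2b3. Eif2b3 (gamma subunit) had 15.1, 12.9 and 14.9 CPM in Tn, 27.8, 51.2 and 59.8 CPM in Teff1, 26.2, 47.8 and 42.5 CPM in Teff2 and 34, 52.1 and 47.1 CPM in Tex. Replicate 1 was the lowest library of each activated state, and still above every Tn library. Eif2b5 (epsilon, the catalytic subunit) had 49.4, 63.7 and 52.4 CPM in Tn, 70.1, 98.5 and 119 CPM in Teff1, 58, 97.9 and 84.1 CPM in Teff2 and 66.7, 108 and 94.3 CPM in Tex. Here the lowest Teff2 library fell among the Tn libraries. Its log2 fold change in Teff1 was 0.80 (SE 0.25, adjusted p = 0.0208, edgeR). The calls of Eif2b2 (beta), Eif2b4 (delta) and Eif2b5 were lost when any of several single libraries was left out (5 libraries each for Eif2b2 and Eif2b4, 4 for Eif2b5), with adjusted p up to 0.311, 0.351 and 0.324 over all alternatives. These highest values came with Tn replicate 2 alone, where Eif2b1 and Eif2b3 were the 2 of 5 called.

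None of the 3 eIF2 kinase genes was called in Teff1 by edgeR, in which 1 of them had an unadjusted p under 0.05, or by DESeq2. Eif2ak3, the kinase of the endoplasmic reticulum, had 76.5, 52.6 and 61.8 CPM in Tn, 47.1, 37 and 31.3 CPM in Teff1, 79.1, 36 and 55.8 CPM in Teff2 and 69.6, 39.2 and 57.7 CPM in Tex. All Teff1 libraries were below all Tn libraries, with a log2 difference of -0.73 (SE 0.30, adjusted p = 0.0583, edgeR), and the day 5 libraries spread over both. It was called lower under 7 of the alternatives, among them the upper-quartile factors (adjusted p = 0.0371, edgeR). Eif2ak4, which senses uncharged tRNA, differed by 0.34 and Eif2ak1, which senses heme, by -0.05. With Tn replicate 2 alone the log2 difference was -0.47 for Eif2ak3 and 0.35 for Eif2ak4.

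The eIF3 complex, the scaffold on which the other factors assemble, was not uniform: 9 of its 14 symbols rose in Teff1 and 5 were not called. The risers were Eif3a, Eif3b, Eif3c, Eif3d, Eif3g, Eif3i, Eif3j1, Eif3l and Eif3m, with log2 fold changes from 0.61 for Eif3g to 1.61 for Eif3c. Eif3c, a core scaffold subunit, had 175, 211 and 191 CPM in Tn, 537, 667 and 560 CPM in Teff1, 449, 605 and 565 CPM in Teff2 and 508, 587 and 622 CPM in Tex. Its lowest activated library was more than 2 times its highest Tn library (log2 1.61, SE 0.17, adjusted p = 2.9e-05, edgeR). Eif3a, the largest subunit, had 431, 419 and 393 CPM in Tn, 902, 853 and 985 CPM in Teff1, 672, 807 and 831 CPM in Teff2 and 740, 688 and 823 CPM in Tex. Teff1 was highest and Tn lowest with no overlap between them (log2 1.14, SE 0.14, adjusted p = 1.04e-04, edgeR). With Tn replicate 2 alone Eif3a, Eif3c and Eif3j1 were called, 3 of 14. The other 6 risers had log2 values from 0.50 for Eif3m, which was 0.76 with all Tn libraries, to 1.10 for Eif3l, and adjusted p from 0.0741 to 0.242 in that edgeR fit.

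Eif3e, Eif3f, Eif3h and Eif3k did not pass, with log2 differences of 0.25, -0.03, 0.20 and 0.31 (SE 0.14 to 0.17). Eif3f, a subunit that carries an MPN domain, had 355, 473 and 352 CPM in Tn, 385, 408 and 368 CPM in Teff1, 404, 446 and 335 CPM in Teff2 and 394, 489 and 420 CPM in Tex. Its 4 states overlapped fully. Eif3j2, a second gene for the loosely bound j subunit, had 1.93 to 12.1 CPM with the widest spread of all tested symbols in Tn, 4.11-fold between its lowest and highest Tn library. Whether the subunits that rose differ from those that did not was not tested.

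**Figure D3:**
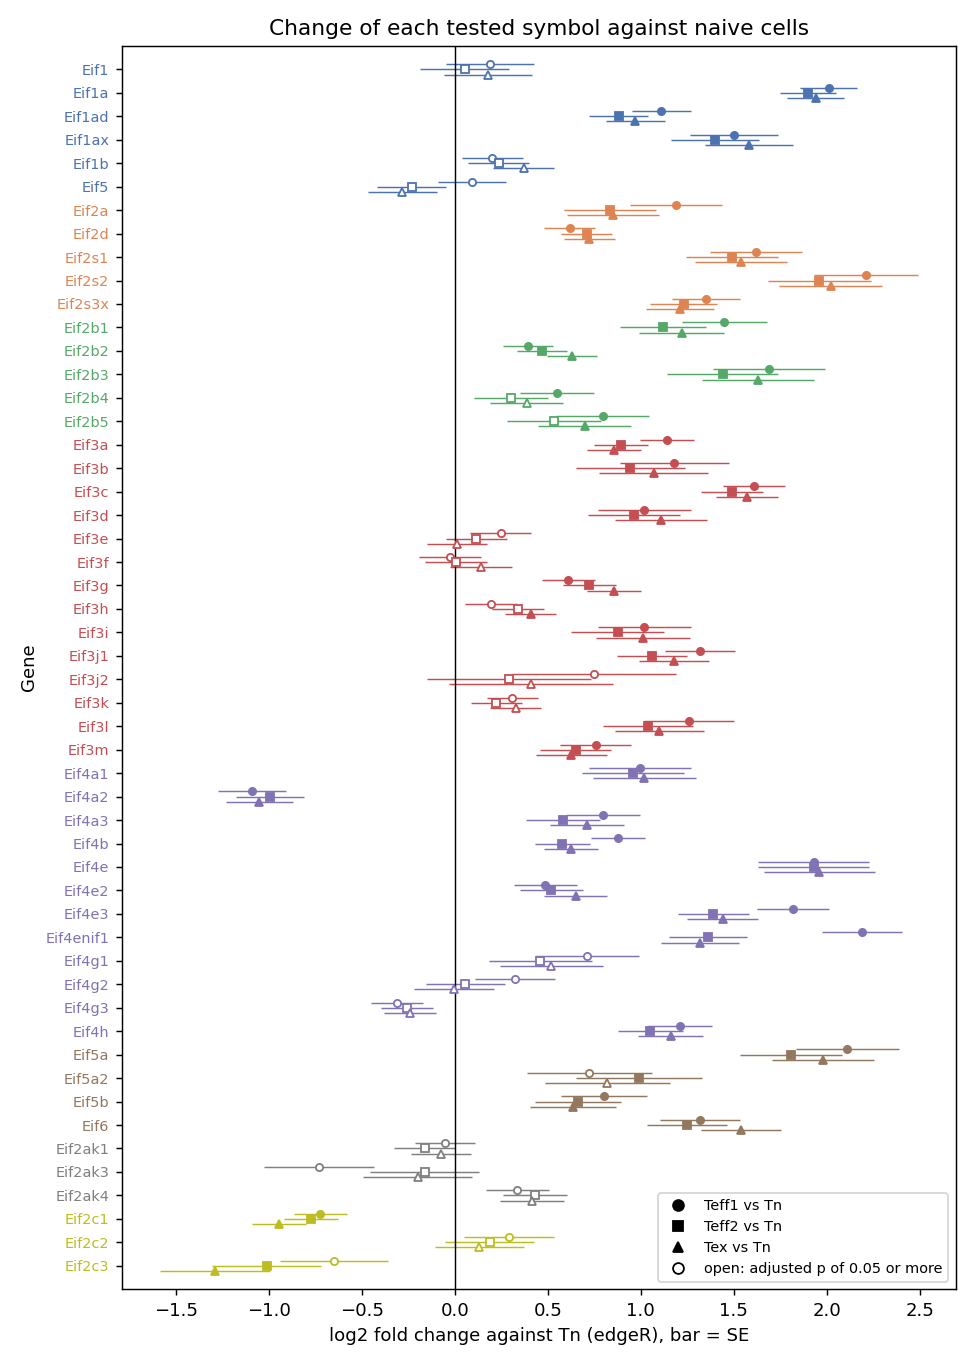
Log2 fold change against Tn from edgeR for the 52 tested symbols, with the SE as a bar, for Teff1 (circles), Teff2 (squares) and Tex (triangles), coloured by role, filled where the adjusted p was under 0.05. The 3 symbols of a gene lie close together for most genes, while Eif4enif1 has its Teff1 value at 2.19 and its day 5 values at 1.36 and 1.32.

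The eIF4 group held the initiation factor that fell, beside several that rose. Of 12 tested symbols 8 rose, Eif4a2 fell, and the scaffold genes Eif4g1, Eif4g2 and Eif4g3 were not called. The start regions of 4 of these genes are shown first. They were picked because Eif4e, Eif4h and Eif4a1 rose and hold CACGTG, while Eif4a2 fell and its window lacks it. CACGTG is the E-box bound by Myc and its relatives. Other genes of the group differ, as Eif4g1 holds it and was not called. The risers Eif4a3, Eif4b, Eif4e2, Eif4e3 and Eif4enif1 are not among the symbols found to hold it. Only 45 of the 56 symbols had a start region to search, and whether each of these risers did is not given here. Each line is the 250 bases before 1 start site listed in RefSeq (GRCm38.p6). It is read 5′ to 3′ on the strand of the gene, with the E-box in capitals. Where a gene had several listed starts, the window with the most copies of CACGTG was taken. For Eif4e the start used, at chr3:138527268, lies inside the gene, whose RefSeq span begins at 138526191.
Eif4e: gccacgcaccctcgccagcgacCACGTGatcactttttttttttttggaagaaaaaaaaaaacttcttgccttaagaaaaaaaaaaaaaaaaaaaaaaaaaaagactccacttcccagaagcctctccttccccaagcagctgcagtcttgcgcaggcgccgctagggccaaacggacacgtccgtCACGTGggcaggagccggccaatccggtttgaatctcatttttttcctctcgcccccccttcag
Eif4h: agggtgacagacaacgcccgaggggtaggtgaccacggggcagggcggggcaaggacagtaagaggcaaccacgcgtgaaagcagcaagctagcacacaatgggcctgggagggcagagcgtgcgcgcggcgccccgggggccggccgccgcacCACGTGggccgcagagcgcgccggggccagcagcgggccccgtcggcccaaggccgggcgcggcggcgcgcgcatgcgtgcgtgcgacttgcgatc
Eif4a1: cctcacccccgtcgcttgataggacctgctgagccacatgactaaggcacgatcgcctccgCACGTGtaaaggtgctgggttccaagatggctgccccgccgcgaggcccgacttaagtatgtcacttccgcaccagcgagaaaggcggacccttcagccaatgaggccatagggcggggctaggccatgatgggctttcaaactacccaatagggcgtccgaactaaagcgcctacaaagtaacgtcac
Eif4a2: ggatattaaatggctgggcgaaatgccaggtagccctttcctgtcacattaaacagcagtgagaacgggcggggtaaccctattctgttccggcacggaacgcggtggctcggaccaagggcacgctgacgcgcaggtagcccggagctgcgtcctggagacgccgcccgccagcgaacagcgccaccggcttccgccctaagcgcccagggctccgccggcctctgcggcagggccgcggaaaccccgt
These lie at chr3:138527018-138527267 on the plus strand, chr5:134639410-134639659 on the minus strand, chr11:69672424-69672673 on the minus strand and chr16:23107218-23107467 on the plus strand.

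Counted from the start site used for each line, the E-box of Eif4h begins at position -96 and that of Eif4a1 at -189. Those of Eif4e begin at -228 and -64. CACGTG reads the same on both strands. Of the 45 symbols whose gene has a start region in the RefSeq table, 10 held it between 250 bases before and 50 bases after a start, or 22.2%, against 8.09% of 27025 genes. The 10 were Eif1b, Eif3a, Eif3f, Eif3k, Eif4a1, Eif4e, Eif4g1, Eif4h, Eif5a and Eif5a2. Of these, Eif3a, Eif4a1, Eif4e, Eif4h and Eif5a rose in Teff1 and the other 5 were not called. Among all 52 tested symbols 33, or 63.5%, were called higher, and among all genes 24.5%. Whether rises go with the motif was not tested. Genes with several listed starts have more windows to search, and by window the shares were 20.3% of 59 and 7.15% of 32851. Within the 100 bases before the start 7 of the 45 held it, or 15.6%, against 3.7% of all genes. Myc itself was at 454 ± 51.1 CPM in Teff1, up from a naive level of 131 ± 15.3 CPM (SD, n = 3 each, log2 1.79, SE 0.23, adjusted p = 1.19e-04, edgeR). Binding was not measured here, and these letters describe the windows only.

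Eif4e, the cap-binding subunit, had 35.7, 47 and 36.8 CPM in Tn, 135, 117 and 206 CPM in Teff1, 92, 192 and 171 CPM in Teff2 and 119, 181 and 166 CPM in Tex. Every activated library lay above every Tn library, and Teff1 was 3.82-fold higher (log2 1.93, SE 0.30, adjusted p = 3.46e-04, edgeR). Eif4enif1, whose product 4E-T carries eIF4E into the nucleus and gathers it with stalled mRNAs in cytoplasmic bodies, had 85.8, 84.8 and 80.3 CPM in Tn, against 334, 470 and 344 CPM in Teff1. It had 163, 253 and 230 CPM in Teff2 and 165, 237 and 224 CPM in Tex, between the levels of Tn and Teff1 without overlap with either. The rise in Teff1 was 4.57-fold (log2 2.19, SE 0.21, adjusted p = 2.04e-05, edgeR). Eif4e3, a cap-binding relative, rose by 1.82 on the log2 scale (SE 0.19), with 30 to 41.7 CPM in Teff1 and 9.82 to 11.1 CPM in Tn.

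Eif4e2, whose product binds the cap without joining eIF4F and represses its mRNAs, rose far less. It had 87.8, 88.9 and 92.2 CPM in Tn, 108, 114 and 156 CPM in Teff1, 113, 147 and 126 CPM in Teff2 and 129, 159 and 135 CPM in Tex. Its log2 fold change in Teff1 was 0.49 (SE 0.17, adjusted p = 0.0313, edgeR), a call lost without Teff1 replicate 3 or without any 1 of the 3 Tn libraries, with adjusted p up to 0.244 over all alternatives. The helicase cofactors Eif4b and Eif4h rose by 0.88 (SE 0.15) and 1.21 (SE 0.18). Eif4a3, a helicase of the exon junction complex, rose by 0.80 (SE 0.20). With Tn replicate 2 alone Eif4e, Eif4e3, Eif4enif1 and Eif4h were called higher and Eif4a2 lower, while Eif4b (log2 0.66, adjusted p = 0.0641, edgeR), Eif4a3 (adjusted p = 0.115), Eif4e2 and Eif4a1 were not.

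The helicase genes Eif4a1 and Eif4a2 moved in opposite directions. Eif4a1 had 588, 456 and 399 CPM in Tn, 761, 836 and 1280 CPM in Teff1, 689, 1260 and 857 CPM in Teff2 and 809, 1220 and 911 CPM in Tex. No activated library reached down to Tn, and the log2 fold change in Teff1 was 0.996 (SE 0.28, adjusted p = 0.0108, edgeR), with the call lost without Teff1 replicate 3, and with Tn replicate 2 alone (log2 1.06, adjusted p = 0.107, edgeR). Eif4a2 had 944, 887 and 764 CPM in Tn, 309, 470 and 437 CPM in Teff1, 460, 431 and 415 CPM in Teff2 and 481, 400 and 370 CPM in Tex. Every activated library was below every Tn library (log2 -1.09, SE 0.18, adjusted p = 5.41e-04, edgeR), and this call held in all 21 alternatives, with log2 values from -1.24 to -0.79. Reads of Eif4a1 may be divided with its processed copies: the pseudogene symbol Eif4a-ps4 held 36746 counts and rose by 1.58 (SE 0.30, adjusted p = 0.00114, edgeR), and how the counting treated such reads is not given in the sources used here.

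The eIF4G scaffold genes did not pass the test. Eif4g1 had 446, 530 and 505 CPM in Tn, 511, 795 and 1120 CPM in Teff1, 592, 911 and 536 CPM in Teff2 and 666, 844 and 613 CPM in Tex. Its lowest Teff1 library lay inside the range of Tn, and it missed the threshold (log2 0.71, SE 0.28, adjusted p = 0.0506, edgeR), with calls as higher under several alternatives, among them DESeq2 at an adjusted p of 0.0385. Without replicate 1 of the activated states its log2 value was 1.03. Eif4g3 had 335, 273 and 290 CPM in Tn, 233, 254 and 239 CPM in Teff1, 238, 287 and 229 CPM in Teff2 and 254, 267 and 241 CPM in Tex. Teff1 was below Tn in every library, with a log2 difference of -0.31 (SE 0.14, adjusted p = 0.0879, edgeR). Eif4g2, which lacks the eIF4E site and serves cap-independent initiation, had a difference of 0.32 (SE 0.21, adjusted p = 0.228, edgeR).

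**Figure D4:**
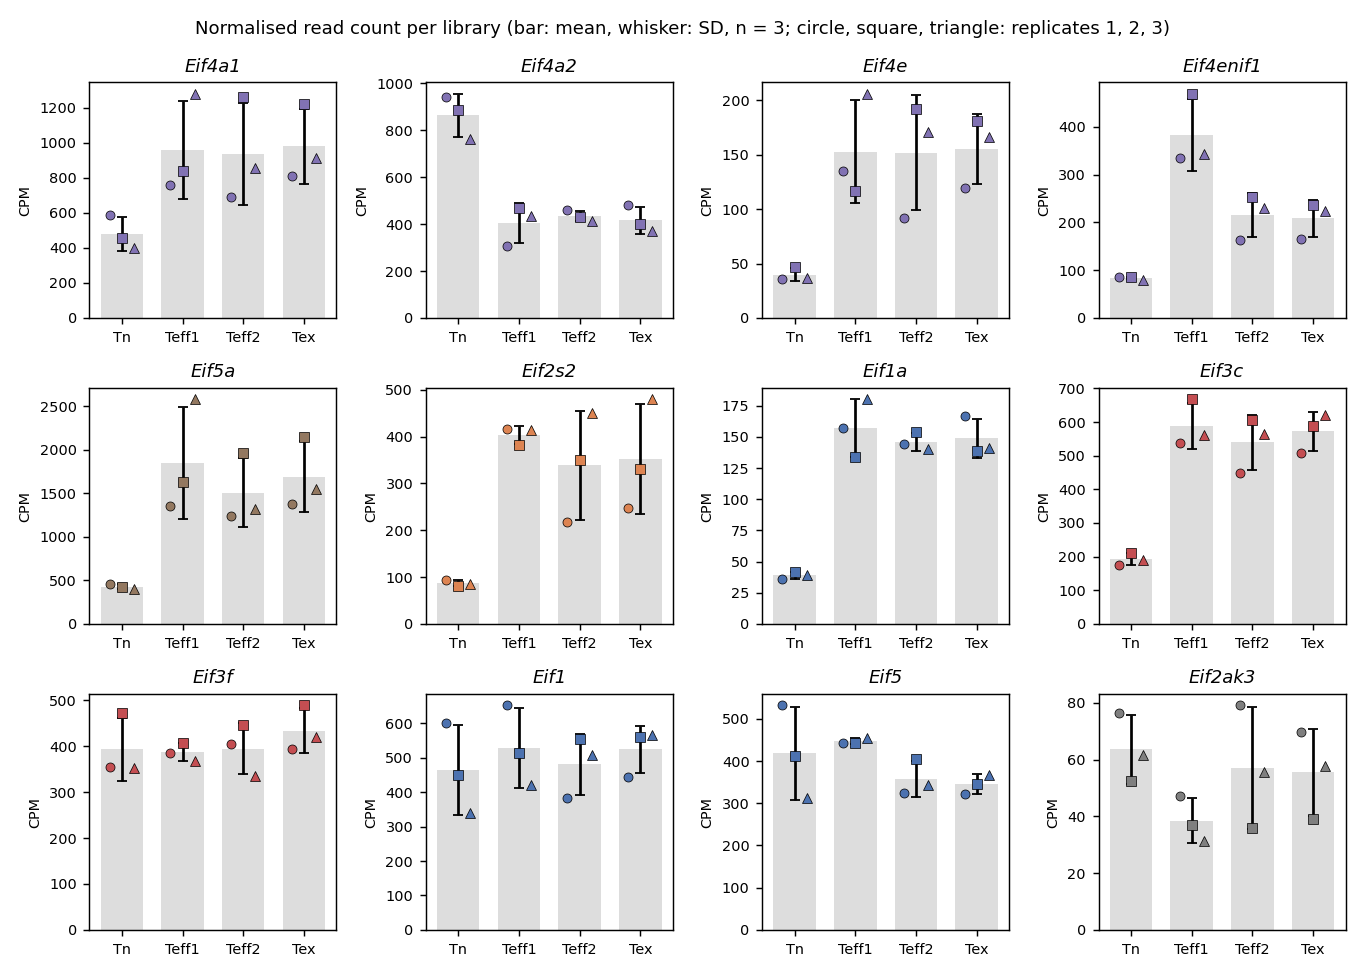
Normalised read counts in CPM for 12 symbols by state, with the mean as a bar, the SD as a whisker (n = 3) and each replicate as a point. Eif4a2 alone is higher in Tn than in all activated libraries, while Eif3f, Eif1 and Eif5 overlap between states and Eif4enif1 is highest in Teff1.

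Among the late-acting factors, 3 of 4 symbols rose in Teff1. Eif5a, which carries the modified amino acid hypusine and helps ribosomes through difficult peptide bonds, had 464, 428 and 397 CPM in Tn, 1350, 1630 and 2580 CPM in Teff1, 1240, 1970 and 1320 CPM in Teff2 and 1380, 2150 and 1550 CPM in Tex. The lowest activated library was more than 2 times the highest Tn library (log2 2.11, SE 0.28, adjusted p = 1.31e-04, edgeR). Eif5a2, the paralog, had 6.75, 10.6 and 8.05 CPM in Tn, 11, 13.2 and 17.8 CPM in Teff1, 10.1, 20.6 and 19.9 CPM in Teff2 and 9.61, 17.6 and 17.7 CPM in Tex, and was not called in Teff1 (log2 0.72, SE 0.34, adjusted p = 0.0931, edgeR). Eif6, which keeps large subunits from joining too early and acts in their maturation, rose by 1.32 (SE 0.22), and Eif5b, the GTPase of subunit joining, by 0.80 (SE 0.23). With Tn replicate 2 alone Eif5a and Eif6 were called and Eif5b was not (log2 0.87, adjusted p = 0.134, edgeR).

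Of the Argonaute symbols, Eif2c1 had 129, 142 and 133 CPM in Tn, 68.6, 86.3 and 90.1 CPM in Teff1, 77, 74.8 and 84.8 CPM in Teff2 and 67.1, 64.9 and 78.2 CPM in Tex. Every activated library was lower (log2 -0.72, SE 0.14, adjusted p = 0.00171, edgeR). Eif2c2, the Argonaute that can cleave its target, had 385, 372 and 322 CPM in Tn, 584, 388 and 351 CPM in Teff1, 472, 381 and 378 CPM in Teff2 and 512, 279 and 394 CPM in Tex, with overlap throughout and no call. Eif2c3 ran from 68.5 to 81.4 CPM in Tn, 35.5 to 64.9 CPM in Teff1, 29.9 to 47.5 CPM in Teff2 and 19.8 to 43.6 CPM in Tex. It was not called in Teff1 (log2 -0.65, SE 0.29, adjusted p = 0.0839, edgeR), with calls as lower under some alternatives. With Tn replicate 2 alone the log2 difference in Teff1 was -0.82 for Eif2c1 and -0.74 for Eif2c3.

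Within pairs of related genes the shares of counts shifted, which is a statement on counts and not on transcripts, since counts were not divided by length. Eif4a2 took 61.6%, 66% and 65.7% of the counts of Eif4a1 and Eif4a2 together in Tn, 28.9%, 36% and 25.4% in Teff1, 40%, 25.4% and 32.6% in Teff2 and 37.3%, 24.7% and 28.9% in Tex. The mean went from 64.5% ± 2.44 in Tn to 30.1% ± 5.4 in Teff1 (SD, n = 3 each), with no overlap, and the 2-sided exact permutation p of 0.1 is the smallest that 3 against 3 libraries allow. Eif4e2 took 69.3% ± 3.4 of the counts of Eif4e2 and Eif4e in Tn and 45.6% ± 3.21 in Teff1. Eif4g3 took 37.8% ± 4.58 of the counts of Eif4g3 and Eif4g1 in Tn and 24.4% ± 6.85 in Teff1. Eif5a2 took 1.95% ± 0.494 of the counts of the eIF5A pair in Tn and 0.766% ± 0.072 in Teff1. Each of these had the same smallest exact permutation p of 0.1. Eif1a and Eif1ax shared their counts more evenly, with Eif1a at 42.2% ± 2.66 in Tn and 51.5% ± 6.14 in Teff1 (exact permutation p = 0.1). For Eif1b and Eif1 the share of Eif1b was 8.83% ± 2.81 in Tn and 8.62% ± 2.15 in Teff1 (exact permutation p = 0.9). These p-values are not adjusted for the number of pairs.

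**Figure D5:**
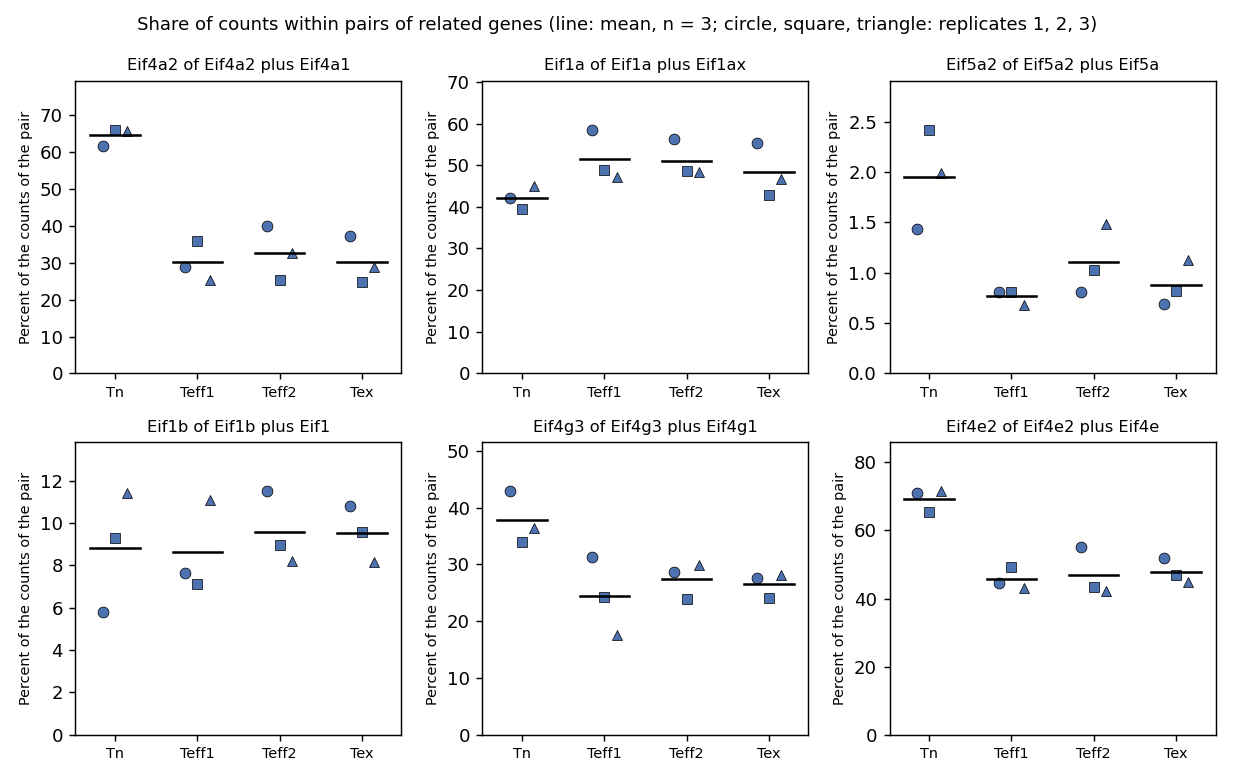
Share of counts taken by 1 gene of a related pair, in percent of the counts of both, for each library, with the mean of each state as a line and replicates as circle, square and triangle. Eif4a2 falls from 64.5% in Tn to between 30.1% and 32.7% in the activated states, while the share of Eif1b stays between 8.62% and 9.55%.

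At day 5 the activated cells of both gates showed similar differences from Tn. In Teff2 32 of the 52 tested symbols were called higher and 3 lower than in Tn, where 25.6% of all genes were called higher and 23.3% lower. In Tex 33 were called higher and 3 lower, where 27.3% of all genes were called higher and 25.6% lower. The medians over the 52 symbols were 0.69 in Teff2 and 0.72 in Tex, against 0.00 over all genes in both. These comparisons and that of Teff1 use the same 3 Tn libraries. The 3 symbols called lower at day 5 were Eif4a2, Eif2c1 and Eif2c3. The log2 fold change of Eif4a2 was -0.99 in Teff2 and -1.05 in Tex (SE 0.18 in both). That of Eif2c3 was -1.01 (SE 0.29, adjusted p = 0.0138, edgeR) in Teff2 and -1.29 (SE 0.30, adjusted p = 0.00339, edgeR) in Tex, and its call in Teff2 was lost without Teff2 replicate 2. With only Tn replicate 2 kept, the medians were 0.64 in Teff2 and 0.68 in Tex, against 0.04 and 0.02 over all genes. Fewer symbols, and fewer of all genes, were called in that fit, as given at the end.

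By role the day 5 calls were spread as follows. All 5 tested genes of tRNA delivery were called higher in both day 5 states. In eIF2B 3 of 5 were called in Teff2 and 4 of 5 in Tex. Eif2b4 was called in neither, with log2 differences of 0.30 and 0.39. In eIF3 9 of 14 were called in Teff2 and 10 of 14 in Tex, the latter including Eif3h at 0.41 (SE 0.14, adjusted p = 0.0261, edgeR), a call lost without Tn replicate 1, Tn replicate 3 or Tex replicate 3. In eIF4 8 of 12 were called higher and 1 lower in both. Several calls were lost when 1 library was left out. In Teff2 this held for Eif4a3 and Eif4e2 without any 1 of the 3 Tn libraries or Teff2 replicate 2, and for Eif4a1 without Tn replicate 3. It held there for Eif3b without Tn replicate 1 or 3 or Teff2 replicate 2, for Eif3m without Tn replicate 1 or 3, for Eif3i without Tn replicate 1 and for Eif2a without Tn replicate 3 or Teff2 replicate 3. In Tex it held for Eif2b5 without Tn replicate 1 or 3 or Tex replicate 2 or 3, for Eif3m without Tn replicate 1 or 3 or Tex replicate 2, and for Eif2a without Tex replicate 3. Of the late factors Eif5a2 was called in Teff2 with a log2 fold change of 0.99 (SE 0.34, adjusted p = 0.0289, edgeR), although its groups overlapped and the call was lost without any 1 of 4 libraries. Eif5b had log2 fold changes of 0.66 and 0.64 whose calls were each lost without any 1 of 5 libraries.

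Between day 2 and day 5 in TIM-3 negative cells, none of the 52 symbols was called, where 0.67% of all genes were. At an unadjusted p under 0.05, edgeR had 2 of the 52 symbols, Eif4enif1 and Eif4e3, both lower in Teff2. The share of all genes under this cut was not counted. Eif4enif1 went from 334, 470 and 344 CPM in Teff1 to 163, 253 and 230 CPM in Teff2 without overlap. Its log2 difference was -0.83, with a 95% interval from -1.28 to -0.38 and an adjusted p of 0.099 in edgeR, while DESeq2 called it at 0.0102 and an edgeR fit with replicate number as a block on all 12 libraries at 0.0269, each with this 1 call among the symbols. Over all alternatives its log2 difference ran from -0.96 to -0.62 and its adjusted p from 0.0102 to 0.351. Eif4e3 differed by -0.43, with an interval from -0.84 to -0.03. The median over the symbols was -0.13, against -0.00 over all genes, and 40 of 52 had a negative value. Of the 52 intervals 49 lay within 1 on the log2 scale in either direction.

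By mean level 31 of the 52 tested symbols were highest in Teff1, 13 in Tex, 6 in Tn and 2 in Teff2, and 43 were lowest in Tn. The order of states was not counted over all genes, so these numbers have no background beside them. Among the activated states this order mostly does not exceed the spread between libraries, as the counts of calls above show. For Eif4enif1 the order was Teff1, Teff2, Tex and Tn, with Teff2 and Tex overlapping. For Eif4a2 it was Tn, Teff2, Tex and Teff1, with the last 3 overlapping.

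TIM-3 positive and TIM-3 negative cells of day 5 did not differ in any of the 52 symbols beyond the test, where 0.00698% of all genes, or 1 gene, were called. No symbol reached an unadjusted p under 0.05 in edgeR, and DESeq2 also called 0. Libraries with the same replicate number deviated together in these 2 states, so a fit within the 3 pairs was made, in which 1.69% of 13096 genes were called and again none of the 52 symbols. In this paired edgeR fit 5 symbols had an unadjusted p under 0.05. The share of all genes under this cut was not counted, so these 5 have no background beside them. Their log2 differences, none of them called, were 0.29 for Eif6 (95% interval 0.11 to 0.46), 0.21 for Eif2b3 and 0.18 for Eif1ax. For Eif2c3 the difference was -0.32 and for Eif2c1 -0.18. The smallest adjusted p of a symbol, that of Eif6, was 0.111. All 52 paired intervals lay between -0.57 and 0.47 on the log2 scale, so differences of more than 1.5-fold in either direction were outside them. The median paired difference was 0.07, against 0.01 over all genes.

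Eif6, which was not called in this comparison, had 223, 252 and 170 CPM in Teff2 and 282, 292 and 213 CPM in Tex. Tex was higher in each of the 3 pairs, while the unpaired groups overlapped. In Tn it had 77.4, 96.4 and 97.5 CPM and in Teff1 177, 218 and 282 CPM.

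Replicate 1 of the activated states held less of these mRNAs than replicates 2 and 3. Its log2 level was lower than the mean of the other 2 by a median over the 52 symbols of -0.27 in Teff1, -0.30 in Teff2 and -0.25 in Tex, against 0.02, 0.01 and 0.00 over all genes. Of the 52 symbols 35 were lower in replicate 1 of all 3 states, and 4 were higher, namely Eif2ak3, Eif2b2, Eif2c2 and Eif2c3. The share of all genes that kept 1 direction in all 3 states was not counted. In Tn the median was -0.07. Without replicate 1 of the 3 activated states, 36 of 53 tested symbols were called higher and 5 lower in Teff1, with a median of 1.02. Calls over all genes rose as well, to 4209 higher and 4117 lower of 14798. In the main fit they were 3507 and 3505 of 14332. The part of culture, sort or RNA quality in the lower level of replicate 1 was not tested.

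Among 12 genes of cap-dependent control 3 rose and 3 fell in Teff1, or 25% each way, which is near the 24.5% of all genes called in each direction. Eif4ebp1, which encodes a 4E-BP that blocks eIF4E when mTOR is inactive, ranged between 9.5 and 12.5 CPM in Tn, and between 111 and 181 CPM in Teff1, with no overlap (n = 3 each). It rose 13.1-fold (log2 3.71, SE 0.21, adjusted p = 1.79e-06, edgeR) and had means of 144 ± 8.61 CPM in Teff2 and 185 ± 21.1 CPM in Tex (SD, n = 3 each). Larp1, which binds the mRNAs of ribosomal proteins and factors, rose by 1.42 (SE 0.16). Pdcd4, an inhibitor of the helicase eIF4A, was at 319 ± 39.4 CPM in Tn, and its level in Teff1 was 102 ± 25.9 CPM (log2 -1.65, SE 0.28, adjusted p = 6.61e-04, edgeR). Eif4ebp3 fell by 1.63 from a mean of 2.38 CPM.

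Among 9 genes of eIF2 control 3 rose and 3 fell, or 33.3% each way, against 24.5% of all genes each way. Trib3, a target and inhibitor of the stress factor Atf4, was at 2.31 ± 0.238 CPM in Tn, and its level in Teff1 was 147 ± 104 CPM (SD, n = 3 each), with the largest log2 fold change of the list, 5.99 (SE 0.65, adjusted p = 3.91e-05, edgeR). Ddit3, a transcription factor of the same response, rose by 1.91 (SE 0.63) although its groups overlapped. Ppp1r15a, a subunit of the phosphatase that reverses eIF2 phosphorylation, went from 262 ± 169 CPM to 77 ± 27.7 CPM (log2 -1.77, SE 0.44, adjusted p = 0.00607, edgeR), and Impact, an inhibitor of the kinase GCN2, fell by 0.76 (SE 0.25).

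Genes of the other steps of protein synthesis were called higher or not at all in Teff1, where 24.5% of all genes were called higher. In termination and recycling 6 of 9 rose (66.7%), led by the release factor genes Etf1 (log2 1.77, SE 0.23) and Gspt1 (log2 1.53, SE 0.19). In elongation 4 of 9 tested genes rose (44.4%), with Eef1e1, a partner of the tRNA synthetases, at 1.76 (SE 0.26) and Eef1g at 0.93 (SE 0.14). Of 9 mRNA-binding and helicase helpers 3 rose, and this share of 33.3% is near the background, with the poly(A)-binding protein gene Pabpc4 at 1.63 (SE 0.15) and Pabpc1 at 0.71 (SE 0.16). Of 9 mitochondrial translation factors 6 rose (66.7%), with Gfm1 at 1.41 (SE 0.27) and Tsfm at 1.30 (SE 0.24). The medians of these 4 lists were 0.86, 0.39, 0.41 and 0.80, against -0.06 over all genes.

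The first transcribed bases were searched for a pyrimidine start, a C followed by at least 4 pyrimidines, as in mRNAs whose translation follows mTOR. Of the 45 symbols with a start region 3 had one, or 6.67%, against 3.01% of all genes, namely Eif2c5 and the 2 factors shown here with the pyrimidine run in capitals, both from RefSeq (GRCm38.p6).
Eif3f: CTCTCTTTCTCggcaagatg
Eif2s3x: CTTTTCTCTCCgagcaagat
These are chr7:108934415-108934434 on the plus strand and chrX:94212632-94212651 on the minus strand. Eif3f, as above, did not change in level beyond the test (log2 -0.03, SE 0.17, Teff1 against Tn), and Eif2s3x rose. Of the 56 symbols, 25 have a span in RefSeq that overlaps another gene, and without strand in the counting, which is not stated, reads of such neighbours cannot be told apart.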

How the data were processed

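RNA-seq counts of 12 libraries (3 each of Tn, Teff1, Teff2 and Tex) came from a matrix that the authors deposited, with whole-number raw counts for each gene symbol. Per the submitters' processing notes the assembly was mm10 and the tools HISAT2, HTSeq and DESeq2, and versions, settings and strand are not given in the sources used here. A second deposited matrix holds log2 normalized values of the authors, with no account of the transformation, and was used for 1 alternative. The 4 Hi-C samples were not analysed here.

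Counts were fitted in R 4.3.3 with edgeR 4.0.16 (TMM factors, filterByExpr by group, quasi-likelihood F test with state as the term) on all 12 libraries, with Benjamini-Hochberg adjustment over 14332 genes and a threshold of 0.05. The code was tested on simulated counts. These had a smaller spread and fewer changed genes than the real data, so error rates here were not tested. CPM use TMM-scaled totals, and 0.5 CPM was added before logs in the replicate 1 medians and the map. Same-numbered libraries of Tex and Teff2 deviated together (r of 0.851, 0.781 and 0.752 across genes, at most 0.119 otherwise), so a paired fit of those 6 libraries is also given. No 2 libraries were identical. Counting floors cover counting error only. Genes were matched to RefSeq (GRCm38.p6), 52 symbols by name and 4 by synonym, and 45 had a start region.

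The symbols, the role and pathway lists and the tests were chosen with earlier results of these data known. Members described in every library are, in each role, that with the most counts, the largest called rise and fall in Teff1, and members of paralog pairs. Eif6, Eif4e3, Eif2c3 and some values of other members were chosen after their values were seen. From each pathway list up to 2 called risers and fallers by size, with at least 2 CPM, are named. Alternatives were other scaling factors, no filter, the replicate block, only the groups compared, leaving out each library, leaving out Tn replicates 1 and 3 or replicate 1 of all activated states, DESeq2 1.42.0 and limma 3.58.1 on the authors' values. The set without Argonaute and kinase symbols was added after the symbols were read.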

Additional observations from a re-analysis of the deposited data

How the results depend on the processing

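No called value turned its direction in the alternatives run, but the median of Tex against Teff2, 0.0633, was -0.0275 without Teff2 replicate 1. Of the risers in Teff1, Teff2 and Tex against Tn, counts were between 28 and 34, 24 and 34, and 29 and 37 when 1 library was left out, and between 2 and 5, 2 and 4, and 3 and 4 for fallers. The medians then ran from 0.654 to 0.957, 0.673 to 0.734 and 0.697 to 0.809. Teff2 against Teff1 and Tex against Teff2 kept 0 calls, with medians from -0.236 to -0.00115 and from -0.0275 to 0.161. The Eif4a2 share in Teff1 minus Tn ran from -37.3 to -32 percentage points, and its variant per length was not run, as exon lengths were not used here.

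With Tn replicates 1 and 3 left out, 17, 16 and 19 symbols were called higher in Teff1, Teff2 and Tex, and over all genes 3015, 3334 and 3944 were called instead of 7012, 7010 and 7584, a fit with fewer libraries. Fallers in Teff1 numbered 4 with upper-quartile factors, 4 with only the 2 groups compared and 5 without replicate 1 of the activated states, where the median was 1.02. Without Argonaute and kinase symbols, a set chosen after seeing the data, there was 1 faller in each comparison with Tn. On the authors' log2 values limma gave medians of 0.558, 0.476 and 0.497, on their own scale. Upper-quartile factors moved the median of all genes in Teff1 from -0.06 to -0.20, and 42.3% rather than 50% of calls over all genes were higher.

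With the replicate block on all 12 libraries, 35, 34 and 35 symbols were higher and 4, 3 and 3 lower in Teff1, Teff2 and Tex, and Eif4enif1 was called lower in Teff2 against Teff1 (adjusted p = 0.0269, edgeR), the 1 call there, as with DESeq2, also 1. Over all genes Teff2 against Teff1 had 96 calls, 313 with the block, 499 in DESeq2 and between 23 and 140 without 1 library. Tex against Teff2 had 1 call, 221 within pairs and 5 in DESeq2. Apart from Tex and Teff2, no 2 states compared here had every same-numbered r above 0.1, so these were not treated as pairs. Tex against Teff1 was not checked in this way. For Teff2 and Teff1 the r were 0.507, 0.243 and 0.0291 for replicates 1, 2 and 3, and in the comparisons with Tn they ran from 0.00484 to 0.136.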
